A study of Mus musculus with 10 samples.

Results

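The Irx genes are 6 genes in 2 clusters, Irx1-2-4 on chromosome 13 and Irx3-5-6 on chromosome 8, out of 21951 protein coding genes and 55450 genes in all (GENCODE M21, GRCm38). They were taken by name, and the H3K27me3 peaks that overlapped their promoters (from 5 kb before to 100 bp after any start site) or gene bodies were collected from each library. There were 59 such peaks, between 1074 and 21967 bp wide. Of the 10 samples in the series, the 6 used here are CUT&Tag libraries for H3K27me3, a method in which an antibody directs the Tn5 transposase to the chromatin that carries the mark. The cells were LT-HSCs, the long-term repopulating stem cells of blood, which had been isolated from mouse fetal liver at E14.5 by an LSK, CD48- and CD150+ gate. A set of 3 libraries came from wild-type (WT) embryos and 3 from embryos without IκBα (KO), the inhibitor of NF-κB encoded by Nfkbia. The KO carries the Nfkbia tm1Bal allele, a targeted knockout allele present in every cell of the embryo, so that the mark was read in LT-HSCs that had developed in a wholly mutant animal. Embryos came from matings of heterozygous parents, some of which also carried the Gfi1:tomato reporter allele, and the labels do not say which embryos inherited it. Replicates 1 and 2 of each genotype were sequenced with 75 bp reads and replicate 3 with 50 bp reads. The other 4 samples, which profile IκBα itself, were not analysed here.

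The libraries differed in how much of the genome they called. Between 1047 (WT replicate 3) and 6013 (WT replicate 2) peaks were deposited per library, covering 1.90 to 27.8 Mb, and 3.5% to 13.0% of the coding genes had a promoter peak. Both 50 bp libraries held the fewest peaks, 1047 in WT and 2325 in KO replicate 3. In a peak file, total signal is fragment coverage summed over the peak and maximum signal is its highest coverage, both unscaled. The library medians of the maximum signal were only 6 to 10, so a place without a peak was not called at this depth and may still carry the mark. No peak was called at the promoter or body of Nfkbia in any library, so these files give no check of the knockout. Kit, Ly6a, Slamf1 and Cd48, which encode proteins used in the sort, also had no peak in any of the 6 libraries.

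The Iroquois (Irx) genes encode TALE-class homeodomain transcription factors that pattern the neural tube, heart, limb and other tissues of the embryo. Each cluster holds 3 genes spread over a long stretch with few other genes, and the clusters are thought to have arisen by duplication, which makes Irx1 and Irx3, Irx2 and Irx5, and Irx4 and Irx6 counterparts. H3K27me3 is written by Polycomb repressive complex PRC2 and typically lies over CpG-rich promoters of developmental regulators that are silent in a given cell type.

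Stretches of reference sequence show CG-rich DNA on which the mark was found in some or all libraries, with CG dinucleotides in capitals. The first pair are the 250 bases before the RefSeq start sites (GRCm38.p6) of Irx2 at chr13:72628570-72628819 (plus strand) and Irx4 at chr13:73260247-73260496 (plus strand), a pair of genes without a promoter peak in WT replicate 3. The other is the matching stretch of Crnde at chr8:92356121-92356370 (minus strand), a long noncoding RNA gene read divergently from Irx5, because the highest coverage at Irx5 fell inside it in 4 of 6 libraries.
Irx2: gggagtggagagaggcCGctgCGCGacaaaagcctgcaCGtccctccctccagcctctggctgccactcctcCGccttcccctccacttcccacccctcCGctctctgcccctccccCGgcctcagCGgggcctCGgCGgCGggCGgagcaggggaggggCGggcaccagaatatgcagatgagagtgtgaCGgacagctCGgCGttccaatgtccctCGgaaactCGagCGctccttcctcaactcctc
Irx4: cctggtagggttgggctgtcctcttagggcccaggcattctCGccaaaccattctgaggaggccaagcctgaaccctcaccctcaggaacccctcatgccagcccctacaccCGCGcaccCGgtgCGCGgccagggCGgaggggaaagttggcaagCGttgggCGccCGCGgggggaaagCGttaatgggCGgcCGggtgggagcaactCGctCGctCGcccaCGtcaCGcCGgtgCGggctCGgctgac
Crnde: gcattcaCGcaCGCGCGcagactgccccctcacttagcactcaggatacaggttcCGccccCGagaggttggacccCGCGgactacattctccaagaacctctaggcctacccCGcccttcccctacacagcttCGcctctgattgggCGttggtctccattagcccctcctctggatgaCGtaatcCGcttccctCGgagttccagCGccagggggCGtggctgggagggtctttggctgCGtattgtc
The Irx2 stretch lay under no peak in WT replicate 3, and the Irx4 stretch under none in WT replicates 1 and 3. The Irx2 stretch held 19 CG dinucleotides, the Irx4 stretch 22 and the Crnde stretch 17. The median over 32817 RefSeq promoters of that length was 6, and 92.1% of them held at least 1 CG. The share of promoters with at least as many CG was 19.7% for Irx2, 14.8% for Irx4 and 23.5% for Crnde. Of the members, 3 had an entry in the RefSeq promoter table (Irx2, Irx3 and Irx4), and the stretch of Irx3 held 13 CG, a number reached by 31.5% of promoters. Irx3 also had no promoter peak in WT replicate 3, and its stretch is not printed because it lies inside the annotated gene.

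CG content was also counted over the whole promoter-and-body windows of all 6 members. It was 53.3 CG per kb in Irx3, 44.2 in Irx2, 36.9 in Irx1, 32.2 in Irx5, 30.6 in Irx4 and 22.0 in Irx6. The median over 21938 coding genes was 11.7 CG per kb, and the lowest member, Irx6, was above 91.8% of them. Among the 8532 coding genes with windows between the shortest and the longest Irx window the median was 13.7 and Irx6 lay above 87.9%. The choice of the members by name did not use their sequence.

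H3K27me3 was called at all 6 Irx promoters in 5 of the 6 libraries. The Irx4 call in WT replicate 1 was the thinnest, with 265 bp of a 5119 bp promoter under the end of 1 peak, and 4 libraries had all 6 calls when at least 500 bp had to be covered. WT replicate 3 was the exception, with promoter peaks at Irx1, Irx5 and Irx6, peaks within the bodies of Irx3 and Irx4, and no peak at Irx2. Across all coding genes, 15.9% had a promoter peak in at least 1 library and 2.66% in all 6, against 6 and 3 of the 6 Irx genes. In WT, 3 of the 6 genes (Irx1, Irx5 and Irx6) had a promoter peak in all 3 libraries, where 3.02% of coding genes did. In KO, all 6 did, where 7.17% of coding genes did. Irx2, Irx3 and Irx4 thus met a KO-only definition (3 of 3 KO and fewer than 3 WT libraries), which 4.51% of coding genes met, and for each of them the single library that lacked the call was WT replicate 3. Of the 1573 coding genes with a promoter peak in 3 of 3 KO libraries, 989 met this definition, and of the 6 Irx genes 3 did. No Irx gene met the opposite definition, which 0.36% of coding genes met. The mean number of Irx promoters called was 5 ± 1.73 (SD, n = 3) in WT and 6 in each KO library, and both other WT libraries had the same 6 calls as the KO libraries. No p is given for this count over the members.

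**Figure D1:**
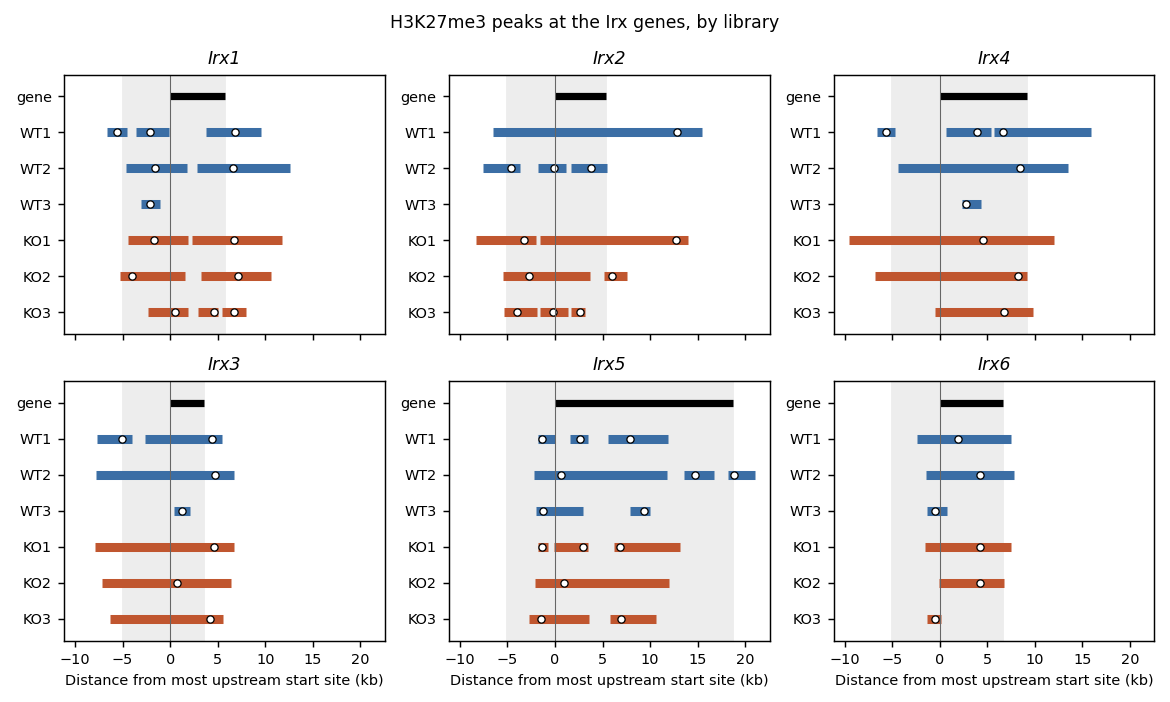
Peaks at each Irx gene by library (blue WT, orange KO), drawn as bars against the distance in kb from the most upstream start site in the direction of transcription, with the place of highest coverage as a white point. The black bar is the gene and the grey band the window from 5 kb upstream to the gene's end. WT3 (WT replicate 3) has the shortest bars and none at Irx2, and the peaks of the other libraries often run past the window.

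The share of each promoter-and-body window that lay under peaks is a level per length, and it falls with the length of the gene where a domain of a given size covers less of a long window. The Irx windows were 8543 to 23662 bp long, and the median window of the 3481 coding genes with a promoter peak in at least 1 library was 32972 bp. The mean share over the 6 libraries was highest at Irx3 (84.1% ± 31.9, SD, n = 6), followed by Irx4 (72.8% ± 33.7), Irx2 (72.0% ± 36.8), Irx1 (66.2% ± 27.5), Irx6 (51.0% ± 28.6) and Irx5 (50.3% ± 15.4). No neighbouring pair in this order differed beyond its spread: the mean within-library difference was smaller than its SD for each of the 5 pairs, for example 11.3 ± 13.8 percentage points between Irx3 and Irx4. The median of the members was 69.1%. It was 0% over all coding genes and 6.76% over the 3481 marked genes, and each Irx gene lay above at least 92.0% of those. Covered length is not lowered by a long window but is cut at the end of a short one, as at Irx3, whose window was filled in 4 of 6 libraries by peaks of 11911 to 14542 bp. Its mean was 5950 bp at Irx6, 7155 at Irx1, 7187 at Irx3, 7470 at Irx2, 10293 at Irx4 and 11896 at Irx5. The median of the marked genes was 2720 bp, and Irx6, the lowest member, lay above 82.0% and Irx5 above 96.1% of them. Irx5, lowest by share, was highest by length.

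Irx1, a gene of the developing lung, heart and limb, was under peaks over 55.2%, 85.8% and 17.8% of its 10803 bp window in WT replicates 1 to 3 and over 90.2%, 85.2% and 63.1% in KO replicates 1 to 3. Its domain came as separate upstream and downstream peaks, with a gap over the gene in 5 libraries, and WT replicate 3 had an upstream peak alone. The promoter region lies at chr13:71961830-71970394 and the region over the body and downstream flank at chr13:71951171-71961463. In 4 libraries (WT replicates 1 and 2, KO replicates 1 and 3) the downstream peak had its highest coverage, 10 to 15, within a stretch 6659 to 6812 bp from the start site, past the end of the gene. WT replicates 1 and 3 had their highest upstream coverage 1 bp apart, at 2143 and 2144 bp before the start site. The 200 bases around the downstream place, at chr13:71956888-71957087 (plus strand, GRCm38.p6), lie outside the annotated gene, within 5 kb upstream of the start of the noncoding gene Gm40999, and are shown because 4 libraries peaked there.
Irx1 downstream place: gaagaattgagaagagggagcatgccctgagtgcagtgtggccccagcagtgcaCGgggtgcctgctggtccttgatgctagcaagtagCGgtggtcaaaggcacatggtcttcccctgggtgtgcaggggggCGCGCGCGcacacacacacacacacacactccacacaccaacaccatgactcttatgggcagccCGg
This stretch held 7 CG dinucleotides, in capitals, and 61.0% G and C.

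Irx2 had the largest contrast between libraries. It was under peaks over 100%, 77.1% and 0% of its 10379 bp window in WT replicates 1 to 3 and over 96.3%, 85.6% and 72.9% in KO. WT replicate 1 had a single peak of 21967 bp here, the widest at any member, which ranked 23 of 4160 peaks of that library by total signal. In WT replicate 2 and KO replicate 3 the same region was split into 3 peaks, and in both the middle peak had its highest coverage inside the Irx2 stretch printed above, 100 and 170.5 bp before the start site. The lincRNA Gm20554, divergent to Irx2, had promoter peaks in the same 2 WT and 3 KO libraries.

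Irx4, known for its role in the ventricles of the heart, was under peaks over 59.4%, 95.9% and 13.9% of its 14130 bp window in WT replicates 1 to 3 and over 100%, 100% and 67.9% in KO. The Irx4 region also holds the start of the small unclassified gene Gm48000. The only WT replicate 3 peak at Irx4 was 1971 bp wide, lay inside the gene and reached a maximum signal of 4. KO replicate 1 had the widest Irx4 peak, 21623 bp, and in KO replicate 3 the peak was 10280 bp wide and ranked 24 of 2325. KO replicate 3 was below WT replicate 2, so the groups overlapped.

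Irx3, which acts in the neural tube and in fat tissue and whose enhancers lie partly in the neighbouring Fto gene, was highest by mean covered share, though its lead was within the spread between libraries. Its 8543 bp window was under peaks over 84.4%, 100% and 20.4% in WT replicates 1 to 3 and over 100% in each KO library. The 3 KO peaks were 14542, 13572 and 11911 bp wide, and the KO replicate 3 peak ranked 14 of 2325 in its library. WT replicate 2, at 14523 bp, was within that range, and WT replicate 3 had one peak of 1740 bp inside the gene, so 1 WT library matched the KO libraries here and 1 stood far below them. The antisense gene Irx3os, which overlaps Irx3, had a promoter peak in all 6 libraries.

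Irx5, which acts in the retina and heart, was under peaks over 41.8%, 74.4% and 29.8% of its 23662 bp window in WT replicates 1 to 3 and over 49.0%, 59.8% and 46.9% in KO. It was the member with the strongest signal in WT replicate 3, where its 4975 bp peak ranked 5 of 1047 by total signal. In WT replicates 1 and 3 and KO replicates 1 and 3 the highest coverage lay between 1302 and 1430.5 bp before the Irx5 start site, inside the Crnde stretch printed above, with maximum signals of 14, 10, 16 and 31. The value of 31 in KO replicate 3 was the highest at any member. In WT replicate 2 and KO replicate 2 a single peak of 14020 and 14161 bp spanned both start sites, with the highest coverage 678 and 901.5 bp after the Irx5 start. The Crnde promoter was called in all 6 libraries, and its reads cannot be assigned to either of these divergent genes.

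Irx6 was under peaks over 78.0%, 69.6% and 17.8% of its 11669 bp window in WT replicates 1 to 3 and over 70.2%, 57.8% and 12.4% in KO. It was the only member whose covered share was lower in KO in 3 of 3 same-numbered pairs. The share of coding genes that went one way in 3 of 3 pairs is not given here, so this direction has no background to set it against. KO replicate 3 was below WT replicate 3, and its peak was 1450 bp wide and ranked 1998 of 2325 by total signal, although its maximum signal of 14 was within the range of the other libraries (6 to 16). Both 50 bp libraries had their highest coverage 534.5 and 542.5 bp before the start site, whereas WT replicate 2 and KO replicates 1 and 2 had it 4221 to 4259 bp after the start.

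**Figure D2:**
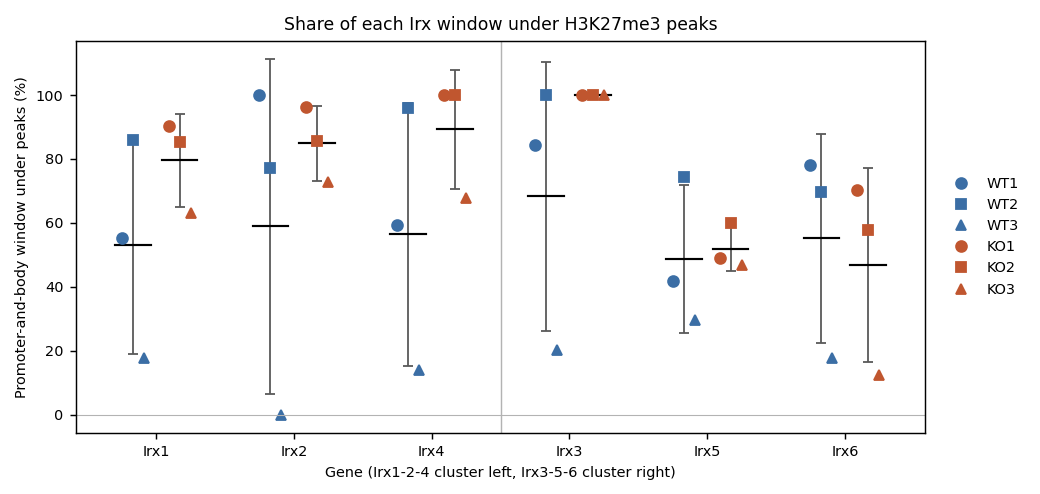
Percent of each promoter-and-body window under H3K27me3 peaks, 1 point per library (blue WT, orange KO; circle, square and triangle for replicates 1, 2 and 3), with the mean (line) and SD (bar) of 3 libraries per genotype. The WT triangles are the lowest WT values at every gene, from 0% to 29.8%, and the genotypes overlap at every gene.

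The comparison of KO with WT asks whether loss of IκBα changed the mark at these genes. WT and KO values overlapped at 6 of 6 members, and no exact permutation test passed 0.05, which 3 against 3 libraries cannot reach: the smallest p possible is 0.1. Covered length was 4646 bp higher in KO at Irx4 (12616 ± 2622 bp against 7970 ± 5802 bp, SD, n = 3, exact two-sided permutation p = 0.2, unadjusted over the 6 genes), and differed by -971 bp (KO minus WT) at Irx6 (5464 ± 3551 bp against 6435 ± 3805 bp, exact permutation p = 0.6). At Irx1, Irx2, Irx3 and Irx5 the differences in covered length were 2870, 2689, 2711 and 772 bp, higher in KO, with exact permutation p of 0.3, 0.7, 0.4 and 0.8. Within same-numbered pairs, Irx6 had less covered length in each KO library, with KO minus WT at -909, -1375 and -628 bp (mean -971 ± 377, SD, n = 3), and Irx4 was higher in each, by 5743, 578 and 7618 bp (4646 ± 3646). The Irx4 length is cut at its 14130 bp window, which KO replicates 1 and 2 filled, and by whole peak width pair 2 ran the other way, 17874 bp in WT and 16045 bp in KO. The mean also exceeded its SD at Irx1 (2870 ± 2605 bp), although its pairs did not all go one way (3785, -69 and 4894 bp). The exact two-sided sign-flip p over the pairs was 0.25 at Irx4 and at Irx6, the smallest that 3 pairs can give, and 0.5 at Irx1. Across all coding genes, 0.278% had a covered share higher in every KO than in every WT library and 0.0137% had a share lower in every KO library. Genes without a peak cannot separate, and the median share over all coding genes was 0%, so these values understate the rate among genes with a peak. They do not describe direction within pairs, for which no share of coding genes is given here. The sizes rested on single libraries. Without WT replicate 3 the Irx4 difference was 1647 bp, that of Irx1 973.5 bp and that of Irx3 665.5 bp, and without WT replicate 2 they were 7437, 4646.5 and 4067 bp. Without WT replicate 3 the Irx2 difference turned to -373.5 bp, with WT higher, and the Irx5 difference to -1463 bp. Without KO replicate 3 that of Irx6 turned to 1037 bp, with KO higher, and without WT replicate 1 to 364 bp. Each of these leaves a library without its pair, and without either replicate 3 library the differences were 1858 bp at Irx1, 251.5 at Irx2, 665.5 at Irx3, 3160.5 at Irx4, -868 at Irx5 and -1142 at Irx6. The part of read length and depth in these differences was not tested.

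Signal was compared as well as extent. Total signal was compared at the 718 merged regions (peaks overlapping by at least 1 bp) called in all 6 libraries, as log2 values centred on each library's median. No region passed limma's adjusted threshold of 0.05 (0 of 718, 0%), and 8 (1.11%) had an unadjusted p under 0.05, 4 higher and 4 lower in KO. An Irx region was among the 718 for 5 of the 6 genes, and none of the 5 was called. At Irx3 (chr8:91795332-91809935) the 3 WT libraries summed to 55949, 69197 and 3867 (unscaled total signal, replicates 1 to 3) and the KO libraries to 70475, 63890 and 44980. WT replicate 3 stood far below the other libraries, and after centring the difference was 0.57 ± 0.41 (log2, KO minus WT, SE), with a limma adjusted p of 0.993. It was 0.15 without WT replicate 3, 0.11 with array weights and at most 0.82 with another library left out.

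The Irx4 region (chr13:73250810-73276406) had total signals of 80113, 102649 and 4045 in WT and 107809, 93451 and 38850 in KO, and a centred difference of 0.51 ± 0.48. It turned to -0.08 without WT replicate 3. At the Irx1 promoter region the difference was 0.23 ± 0.30, from totals of 20242, 30794 and 3687 in WT and 30961, 29699 and 16398 in KO. At Irx5 (chr8:92354949-92370784) the totals were 45706, 62633 and 16369 in WT and 59343, 55512 and 55432 in KO, and the difference was -0.02 ± 0.41. Here both 50 bp libraries stood above the 75 bp libraries after centring, in either genotype.

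The Irx6 region (chr8:92671852-92682056) had the most negative value of the 5, -0.54 ± 0.41, from totals of 38745, 42381 and 4464 in WT and 46079, 28235 and 7428 in KO. As mean signal per covered base its difference was 0.24, the other way. It was -0.11 without KO replicate 3 and -0.85 without KO replicate 1. The limma adjusted p was 0.993 at each of these 5 regions. The Irx2 region (chr13:72620487-72644314) was uncalled in WT replicate 3, with totals of 79026 and 75305 in WT replicates 1 and 2 and of 103922, 52409 and 55019 in KO. With WT replicate 3 filled in at its smallest called signal the Irx2 difference was 0.85 ± 0.48 (limma adjusted p = 0.999), and in a fit without that library it was 0.03 ± 0.38 (limma adjusted p = 0.996). In the 75 bp libraries alone it was -0.18 ± 0.39, the other way (limma adjusted p = 0.999).

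**Figure D3:**
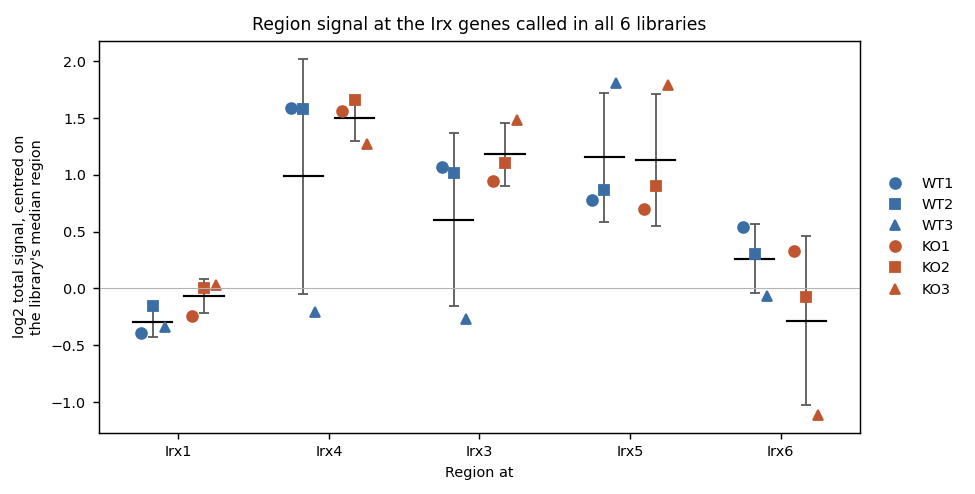
Total signal of the regions at 5 Irx genes, on a log2 scale centred on the median of the 718 regions called in all 6 libraries, 1 point per library with the mean (line) and SD (bar) per genotype. The WT3 triangle lies below the other 5 libraries at Irx4 and Irx3, at -0.21 for Irx4, whereas at Irx5 both triangles are the highest points.

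Seen from the libraries, the Irx windows took a larger share of the called genome where less was called. They made up 0.280%, 0.234% and 0.778% of the covered length in WT replicates 1 to 3 and 0.267%, 0.268% and 0.592% in KO. The 2 libraries with the highest shares were those with 50 bp reads and the fewest peaks. When only the 1047 strongest peaks by total signal of every library were kept, the number of Irx promoters with a peak was 4, 5 and 3 in WT replicates 1 to 3 and 5, 6 and 5 in KO. Over all coding genes the share with a promoter peak was then 3.93%, 3.84% and 3.5% in WT and 4.36%, 3.93% and 4.21% in KO, also lowest in WT replicate 3. Only the number of peaks was matched: the 1047 peaks covered 1.90 Mb in WT replicate 3 and 4.59 to 10.5 Mb in the others. Mean coverage at the members, relative to the median peak of the library, was 0.732 to 0.890 in WT replicate 3 and 0.894 to 1.34 in the other 5 libraries.

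The clusters were also compared as whole stretches. The Irx1-2-4 span was 1312 kb and the Irx3-5-6 span 882 kb long, and neither held another protein coding gene. In the Irx1-2-4 span 3.40%, 4.38% and 0.297% lay under peaks in WT replicates 1 to 3 and 4.12%, 3.96% and 2.24% in KO. For the Irx3-5-6 span, WT replicates 1 to 3 had 4.39%, 5.84% and 1.23% and KO replicates 4.18%, 5.18% and 2.93%. The Irx3-5-6 span was covered more densely in 6 of 6 libraries, by 0.893 ± 0.486 percentage points (SD, n = 6), with an exact two-sided sign-flip p of 0.031, the smallest that 6 libraries can give. When the WT and KO libraries of a number were averaged first, as a block chosen after the data had been seen, 3 values were left and the exact p was 0.25, the smallest they can give. With the 1047 strongest peaks of every library the difference was 0.789 and its exact p 0.0625. The direction was opposite over the genes themselves: the windows of Irx3-5-6 were covered less than those of Irx1-2-4 in 5 of 6 libraries, by a mean of 13.5 ± 15.8 percentage points. The windows add up to 43.9 kb of the 882 kb Irx3-5-6 span and 35.3 kb of the 1312 kb Irx1-2-4 span. They thus fill more of the shorter span, and the p for the spans is not a test of how densely the genes were covered. Outside the windows the Irx3-5-6 span was not covered more throughout: in WT replicates 1 to 3 peaks lay over 1.49%, 2.06% and 0% of the rest of it, against 1.55%, 2.09% and 0% in Irx1-2-4, and in KO over 1.02%, 1.94% and 0.569%, against 1.58%, 1.55% and 0.423%.

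Between genotypes the span values overlapped. The Irx1-2-4 span was 2.69% ± 2.13 covered in WT and 3.44% ± 1.04 in KO (SD, n = 3, exact permutation p = 0.7), and the Irx3-5-6 span 3.82% ± 2.36 in WT and 4.10% ± 1.13 in KO (exact permutation p = 0.9). Without WT replicate 3 both differences changed sign, to -0.447 and -1.02 percentage points. Without either replicate 3 library, which leaves the pairs whole, they were 0.154 and -0.433.

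In each library the larger part of the marked length in either span lay at the genes. The windows held 53.7% to 100% of the covered length in the Irx1-2-4 span and 64.4% to 100% in the Irx3-5-6 span, both at 100% in WT replicate 3. Merging peaks gave 11 regions in the first span, 4 at Irx genes and 7 away from them, and 9 in the second, 5 at Irx genes and 4 away. Of the 5, 2 were short stretches in the long body of Irx5 that WT replicate 2 alone called. None of the regions away from the genes was called in all 6 libraries, and 5 of the 7 in the Irx1-2-4 span were called in 1 library. The most recurrent was chr8:92456443-92463373, 98694 bp from the Irx5 start site on the side of Irx6. It lies outside annotated gene bodies and reaches the promoter of the lincRNA Gm45336, which was called in 1 WT and 3 KO libraries. It summed to 25592 and 22424 (total signal) for WT replicates 1 and 2 and to 28300, 18104 and 10894 for KO, and was uncalled in WT replicate 3. In the Irx1-2-4 span the most recurrent was chr13:72815561-72819463 at the start of the lincRNA D730050B12Rik, called in replicates 1 and 2 of both genotypes.

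**Figure D4:**
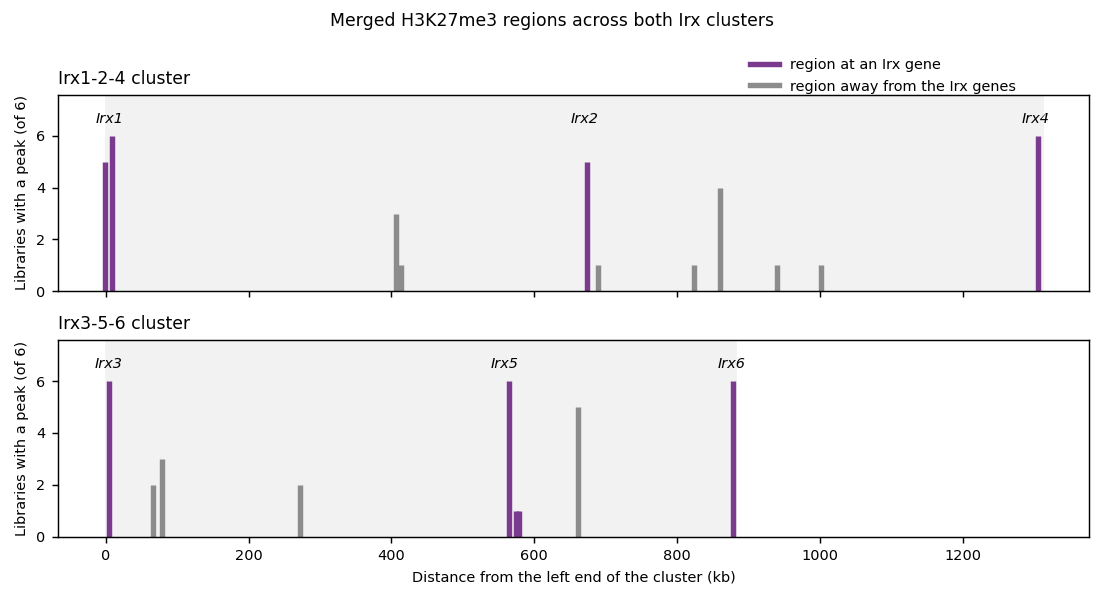
Merged H3K27me3 regions along both Irx clusters, as bars at their centre with the number of libraries (of 6) that called them, against the distance in kb from the left end of the cluster (grey band). Each Irx gene has a bar of 5 or 6 libraries (purple), Irx5 also has 2 short bars of 1 library, and of the regions away from them (grey) the highest is called in 5 libraries, between Irx5 and Irx6.

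Of the nearest coding genes on either side of the spans, 1 of 4 had a promoter peak in at least 1 library, where 15.9% of coding genes did. Ndufs6, a subunit of mitochondrial complex I 50.2 kb beyond Irx4, Fto, an RNA demethylase 130 kb beyond Irx3, and Mmp2, a matrix metalloproteinase 146 kb beyond Irx6, had no promoter peak in any library. Adamts16, a secreted protease 1116 kb beyond Irx1, had promoter peaks in 2 WT and 2 KO libraries. Of the other annotated genes inside the spans, 3 of 10 in Irx1-2-4 and 4 of 14 in Irx3-5-6 had a promoter peak in at least 1 library, where 9.1% of all 55450 annotated genes did. Leaving out those that overlap the window of an Irx gene, 2 in each span had one.

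The other TALE-class homeobox genes, relatives of the Irx genes, were read in the same way. Of 11 genes of the Meis, Pbx, Pknox, Tgif and Mkx families, 4 had a promoter peak in at least 1 library and 7 had none, where all 6 Irx genes and 15.9% of coding genes had one. Meis1, a transcription factor that hematopoietic stem cells use, was among the 7 without a peak. Pknox2 was called at the promoter in all 6 libraries, Meis2 in 3 WT and 2 KO, and Meis3 and Mkx in 2 WT and 3 KO libraries. The median covered share of the 11 was 0%, and their highest mean was 19.5% ± 14.6 (SD, n = 6) at Meis3. Their windows ran to 261426 bp at Pknox2, so that the share understates a domain there. By covered length Pknox2 had 11005, 7381 and 1414 bp in WT replicates 1 to 3 and 9174, 8917 and 4179 bp in KO. In WT replicate 1 this was above all 6 Irx genes (5960 to 10379 bp) and in WT replicate 2 below them (7998 to 17610 bp). Its mean of 7012 bp was above that of Irx6, whereas those of Mkx (4652 bp), Meis2 (3434 bp) and Meis3 (3206 bp) were below all 6 Irx means. Some unmarked genes of the 11 were as CG-dense as the members. Pbx2, with 33.1 CG per kb, was denser than Irx4, Irx5 and Irx6 and had no peak, and neither did Tgif1 (26.4) or Tgif2 (22.7), which were both denser than Irx6. No test was run between these lists.

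**Figure D5:**
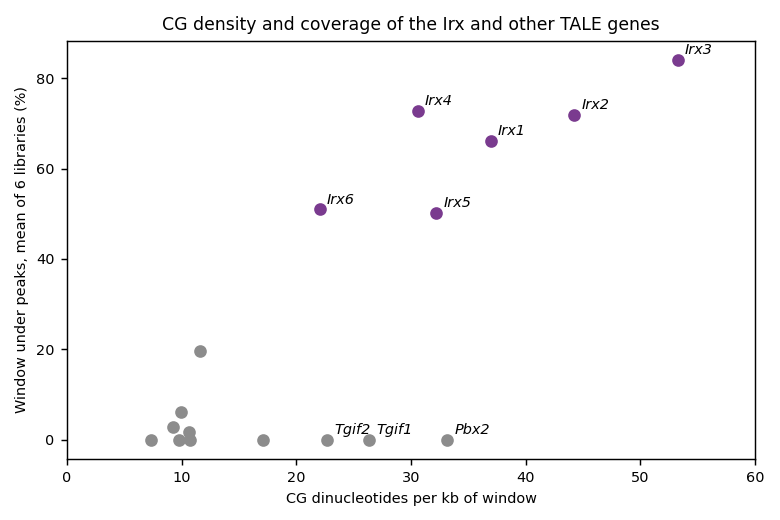
CG dinucleotides per kb of promoter-and-body window (x axis) and percent of the window under peaks, mean of 6 libraries (y axis), for the 6 Irx genes (purple) and 11 other TALE homeobox genes (grey). The Irx genes lie between 50.3% and 84.1%, and the grey points, among them Pbx2, Tgif1 and Tgif2 at 0%, lie at or under 19.5%, where long windows lower the share.

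Outside the clusters, the coding genes whose covered share followed the Irx mean most closely over the 6 libraries were Insrr, Nkx3-2, Scarf2, Nxph4 and Egr2. Likeness was measured as Euclidean distance in percentage points, which was 9.97 for Insrr, a receptor related to the insulin receptor, and 14.0 for Nkx3-2, a homeobox gene of the skeleton. The share of Insrr was 74.1%, 88.8% and 10.2% in WT replicates 1 to 3 and 87.1%, 79.1% and 59.3% in KO. For the mean of the Irx genes the WT replicates had 69.8%, 83.8% and 16.6% and the KO replicates 84.3%, 81.4% and 60.5%. Insrr was picked for this likeness, so the shared order of the libraries is no finding.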

How the data were processed

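H3K27me3 CUT&Tag was analysed in 6 libraries (3 WT, 3 KO), grouped by their labels. The authors trimmed reads (Trim Galore 0.6.6), aligned them to GRCm38 (Bowtie2 2.4.4), dropped duplicates and reads of low or multiple mapping, and ran SEACR 1.3 on every library (stringent, top 0.5% of blocks, no IgG). The deposited columns are total signal and maximum signal (fragment coverage) per peak, unscaled, so that values and calls move with depth. Read totals per library were not used here.

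Peaks were intersected with GENCODE M21 genes in Python 3.11.15 (any overlap of 1 bp). Coordinates are 1-based. Regions were merged over libraries and tested with limma 3.58.1 (R 4.3.3; Benjamini-Hochberg over all regions), and single values by exact permutation or sign-flip tests (scipy 1.17.1). The limma and coverage steps were tested on simulated data. Promoter sequences came from RefSeq (GRCm38.p6). Named were all 6 members, 11 other TALE genes (1 more is not reported here), genes in the spans, the nearest coding genes and the 5 coding genes with the most similar coverage. The members, lists and tests were chosen with earlier results of these data known.

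The study speaks of 3 replicates in several places, called independent in its reporting summary, and of a pair of experiments or replicates elsewhere. The labels do not tie libraries to embryos, litters or experiments. Libraries of a genotype may therefore share an experiment, and p-values measure the spread between these samples. Same-numbered WT and KO libraries deviated together (Pearson r of deviations over 718 regions 0.277, 0.315 and 0.479), with the numbers taken from the labels. Among the other pairs, r was 0.116 and 0.270 between 75 bp libraries and -0.281 to -0.441 between a 75 bp and a 50 bp library, so number and read length cannot be told apart for replicate 3. KO replicate 1 was about as close to WT replicate 2 (0.270) as to WT replicate 1 (0.277). Deviations within a genotype cancel at each region, so positive r in some pairs goes with negative r in others by construction. A replicate block was therefore among the alternatives, with other peak sets, overlaps, promoter definitions, scalings and left-out libraries.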

Additional observations from a re-analysis of the deposited data

How the results depend on the processing

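Of 138 alternative values of the tested KO against WT results, the replicate block left out, 114 kept their direction, 24 changed sign and none passed the threshold of 0.05. The exact permutation tests among them, on covered length and spans, could not pass it with 3 or fewer libraries a genotype, so for these only the direction is informative. The number of regions past limma's threshold was 0 under all 13 alternatives. With the replicate block limma called 0 regions (24 at an unadjusted p under 0.05). The exact sign-flip tests over 3 pairs cannot give a p under 0.25, so the pairing could not change a call there. The contrast between spans, 0.893, had an exact p of 0.25 under a replicate block added after the data had been seen, the smallest that 3 values can give. The Irx promoter difference of 1 ranged from 0 to 1.67, and from 0 to 1.5 with libraries left out. The span difference of Irx1-2-4 ranged from -0.447 to 1.59 with a library left out. That of Irx3-5-6 ranged from -1.02 to 1.29, was -0.433 in the 75 bp libraries and -0.265 without KO replicate 2. The contrast between spans was 0.789 (exact p = 0.0625) with the strongest 1047 peaks, for which the cause was not tested, and 0.933 (exact p = 0.125) in the 75 bp libraries. With a library left out it ranged from 0.779 to 1.06 (exact p = 0.0625), and 5 or 4 libraries cannot give a smaller p. Covered length changed sign for Irx2 without WT replicate 3 (-373.5 bp), for Irx5 in the 75 bp libraries (-868 bp) and without WT replicate 1 (-43.7 bp), WT replicate 3 (-1463 bp) or KO replicate 2 (-168 bp), and for Irx6 without WT replicate 1 (364 bp) or KO replicate 3 (1037 bp). With libraries left out it ranged from -373.5 to 4816 bp at Irx2, -1463 to 3822 bp at Irx5 and -3149 to 1037 bp at Irx6. Log2 differences changed sign by maximum signal at Irx1 (-0.042), Irx4 (-0.088) and Irx5 (0.32), and by mean signal at Irx4 (-0.023), Irx5 (0.10) and Irx6 (0.24). In the 75 bp libraries Irx3 gave -0.0032. Irx5 gave 0.20 in regions of at least 3 libraries and 0.0041 with array weights. Left-out libraries gave -0.079 (without WT replicate 3) to 0.82 at Irx4 and -0.33 to 0.32 at Irx5, with 0.20 without KO replicate 1, 0.096 without KO replicate 2 and 0.32 without WT replicate 3. Why these signs changed was not tested. The peak files limit what can be seen: low coverage makes a missing call uninformative, and 3 libraries a genotype cannot give an exact p under 0.1.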
